A study of Mus musculus with 4 samples.

Results

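The miR-23/27/24 group was followed in plasma small extracellular vesicles, the small membrane-bound packages shed by cells, of mice after sham surgery or surgery causing a myocardial infarction (MI, the loss of heart muscle when a coronary artery is blocked). All rows named mmu-miR-23a, 23b, 24, 27a or 27b were taken (mmu stands for mouse and is left out below where the name is clear), whichever arm of the hairpin they named, and none joined several names. This gave 6 of 530 miRNA names listed in any library, the 5 guide arms (the 3p strands mmu-miR-23a-3p, mmu-miR-23b-3p, mmu-miR-24-3p, mmu-miR-27a-3p and mmu-miR-27b-3p) and 1 passenger arm, mmu-miR-23a-5p. The guide arms were listed in all 4 libraries, as were 189 miRNAs in all. There were 2 sham and 2 MI libraries, all from wild-type animals on a normal diet sampled at 12 h. The sources used here give no strain, sex or age and do not tie replicates to individual mice. The p-values therefore reflect differences between libraries, which may be technical alone.

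Each cluster is transcribed as a single precursor RNA, from which a miR-23, a miR-27 and a miR-24 hairpin are cut. The clusters are known for their roles in blood vessels: miR-23 and miR-27 repress inhibitors of angiogenesis in endothelial cells, and miR-24 promotes endothelial cell death after cardiac ischaemia. Outside vessels, miR-27 restrains fat cell formation, miR-23a represses the glutamine-metabolising enzyme glutaminase, and the miR-23a cluster acts in blood cell development.

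The sequences of 4 guide arms are printed to show their seeds, the stretch of bases 2 to 8 that pairs with target mRNAs (in capitals, 5′ to 3′, from RefSeq on GRCm38.p6). miR-23a-3p and miR-23b-3p are known to belong to 1 seed family.
miR-23a-3p: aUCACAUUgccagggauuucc
miR-27a-3p: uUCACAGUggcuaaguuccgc
miR-27b-3p: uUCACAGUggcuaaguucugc
miR-24-3p: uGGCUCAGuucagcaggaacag
miR-27a-3p and miR-27b-3p have the same seed and differ by 1 substitution outside it, C19U, counted from the 5′ end with miR-27a-3p first. The miR-23a-3p seed differs from that of the miR-27 pair by 1 base, U7G with miR-23a-3p first, so those families differ by a single letter of the seed. The miR-24-3p seed is shared in RefSeq by 4 other mouse miRNAs, of which miR-6369 was listed in sham replicate 1 with 13 UMIs and the others in no library.

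The mature miR-24-3p is made by both clusters. The hairpins below are printed whole, with the mature strand in capitals, to show that the counted molecule is identical while the rest differs.
Mir24-1: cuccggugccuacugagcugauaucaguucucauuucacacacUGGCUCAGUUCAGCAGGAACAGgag
Mir24-2: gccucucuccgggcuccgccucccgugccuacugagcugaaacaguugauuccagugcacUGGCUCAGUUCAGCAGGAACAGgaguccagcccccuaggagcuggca
A miR-24-3p molecule therefore cannot be assigned to a cluster, while miR-23a, miR-27a, miR-23b and miR-27b can be where the counting told the paralogs apart.

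Mir23a (84208518 to 84208592), Mir27a (84208672 to 84208758) and Mir24-2 (84208815 to 84208921) lie on chromosome 8, plus strand, within 404 bases. Apart from the hairpins themselves, GENCODE M21 annotates the start of the lincRNA Gm26532 at the end of Mir24-2. It also annotates the miRNA gene Mir3074-2 on the opposite strand of Mir24-2. Mir23b (63300484 to 63300557), Mir27b (63300712 to 63300784) and Mir24-1 (63301208 to 63301275) lie on chromosome 13, plus strand, within 792 bases. That cluster sits inside the protein-coding gene 2010111I01Rik on the same strand, with Mir23b in an intron and the other hairpins overlapping annotated exons. It also sits inside an intron of Fancc on the opposite strand. The miRNA gene Mir3074-1 overlaps Mir24-1 on the opposite strand.

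**Figure D1:**
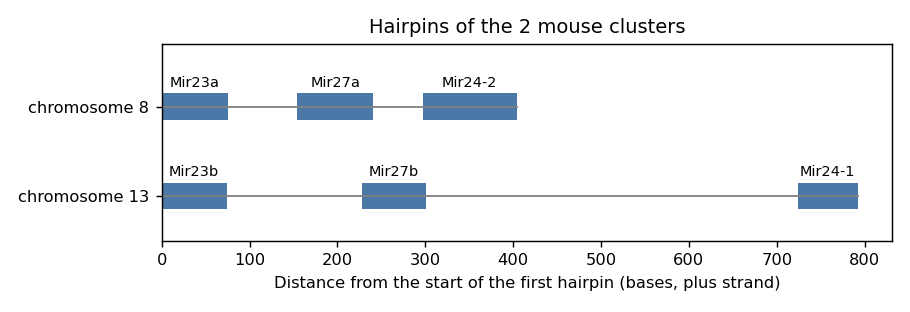
Positions of the miRNA hairpins (boxes) of both mouse clusters, as distance in bases from the start of the first hairpin of each. The order is the same in both, and the chromosome 13 cluster spans 792 bases against 404 on chromosome 8.

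Molecules were counted by unique molecular identifiers (UMIs), random tags that let PCR copies of a molecule be counted once. The libraries held 11872840 to 24626952 total reads and 135334 to 377031 miRNA UMIs, with sham replicate 1 the deepest. The lowest listed value was 10 UMIs, so an unlisted miRNA could hold up to 9. Levels are UMIs per 1e6 miRNA UMIs (CPM). The plasma label was compared with blood cell miRNAs, and all 6 red cell, 4 myeloid and platelet, 3 lymphoid and 2 endothelial miRNAs looked for were listed in all 4 libraries. The summed red cell list took 42.4 and 44.5% of miRNA UMIs in the sham libraries and 50.3 and 52.5% in the MI libraries. These groups did not overlap, and 21.7% of the 267 single miRNAs tested also had both MI libraries above both sham libraries. The most abundant of the list was miR-16-5p, at a mean log2 CPM of 18.3 in edgeR, against 10.5 for miR-451a. How much of the sum came from red cells was not tested.

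Together the 5 guide arms made up 1.28 and 1.08% of miRNA UMIs in sham replicates 1 and 2, and 0.986 and 0.905% in MI replicates 1 and 2. Both MI libraries lay below both sham libraries, as for 26.6% of the 267 single miRNAs tested. The largest part of the difference in means came from miR-24-3p, and the next from miR-23a-3p, whose groups overlapped. The members fell into an upper pair, miR-24-3p and miR-23a-3p, a middle member, miR-27b-3p, and a lower pair, miR-27a-3p and miR-23b-3p.

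mmu-miR-24-3p, the product of both loci, was counted with 1757 and 685 UMIs in sham and 621 and 382 UMIs in MI libraries. These were 4660.1 and 4269 CPM in sham and 2836 and 2823 CPM in MI libraries, or 4465 ± 276 against 2829 ± 9.54 CPM (mean ± SD, n = 2 per group). Both MI libraries were below both sham libraries, and the groups were further apart than the replicates of either. miR-24-3p was 1.55-fold lower after MI (log2 fold change -0.63, SE 0.15) and did not pass the threshold of 0.05 over all miRNAs (edgeR quasi-likelihood test, unadjusted p = 0.00929, Benjamini-Hochberg adjusted p = 0.146 over 267 tested miRNAs). Of the 267 tested, 26.6% had both MI libraries below both sham libraries, and 8.61% were lower at an unadjusted p under 0.05. Its log2 fold change was negative in all 15 alternative settings and ranged from -0.83 to -0.45. With no low-count filter its adjusted p was 0.0196, past the threshold (edgeR), and over the 15 settings the adjusted p ranged from 0.0196 to 0.555.

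mmu-miR-23a-3p, the first product of the chromosome 8 cluster, had 1655 and 605 UMIs in sham and 849 and 396 UMIs in MI libraries. Its levels were 4389.6 and 3771 CPM in sham and 3877 and 2926 CPM in MI libraries. MI replicate 1 lay between the sham libraries and MI replicate 2 below them. The means were 4080.1 ± 438 and 3402 ± 673 CPM, and the log2 fold change was -0.22 (SE 0.24, edgeR adjusted p = 0.834).

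mmu-miR-23b-3p, its counterpart from chromosome 13, had 301 and 102 UMIs in sham and 195 and 83 UMIs in MI libraries. This made 798 and 636 CPM in sham and 891 and 613 CPM in MI libraries. The MI libraries were the highest and the lowest of the 4, so the groups overlapped completely. The means were 717 ± 115 and 752 ± 196 CPM, with a log2 fold change of 0.11 (SE 0.33, edgeR adjusted p = 0.930).

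mmu-miR-27a-3p, the second product on chromosome 8, had 361 and 106 UMIs in sham and 176 and 131 UMIs in MI libraries. Its levels were 957 and 661 CPM in sham and 804 and 968 CPM in MI libraries. The sham libraries were further apart than the group means of 809 ± 209.9 and 886 ± 116 CPM. The log2 fold change was 0.14 (SE 0.26, edgeR adjusted p = 0.902).

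mmu-miR-27b-3p, from chromosome 13, had 756 and 241 UMIs in sham and 317 and 233 UMIs in MI libraries. These were 2005 and 1502 CPM in sham and 1448 and 1722 CPM in MI libraries. MI replicate 2 lay between the sham libraries and MI replicate 1 below both. The means were 1754 ± 356 and 1585 ± 194 CPM, with a log2 fold change of -0.13 (SE 0.21, edgeR adjusted p = 0.895).

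**Figure D2:**
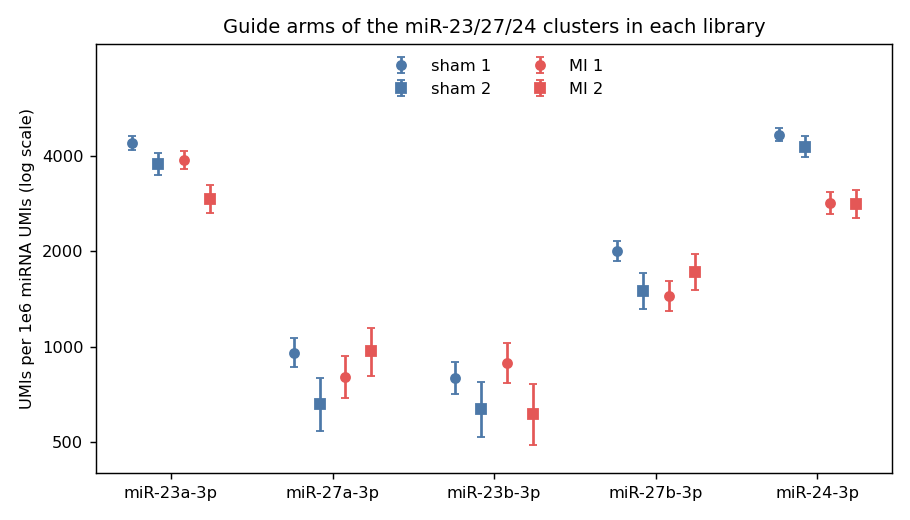
UMIs per 1e6 miRNA UMIs (log axis) of each guide arm in the sham (blue) and MI (red) libraries, circles for replicate 1 and squares for replicate 2. Bars are 95% exact Poisson intervals, which cover counting error only. The MI points of miR-24-3p (2836 and 2823) lie below its sham points (4660.1 and 4269), and for the other arms the groups overlap.

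None of the 5 tested guide arms passed the threshold in either direction, beside 2.25% of all 267 tested miRNAs, of which 4 (1.5%) were higher and 2 (0.749%) lower. The passenger arm did not pass the low-count filter. Among the guide arms 1, miR-24-3p, had an unadjusted p under 0.05 in edgeR. With the DESeq2 test, none of the arms passed either, with an adjusted p of 0.207 for miR-24-3p. The median log2 fold change of the arms was -0.13, beside -0.01 over all tested miRNAs, and 3 of the 5 were negative. Scaling by DESeq2 size factors split the calls over all miRNAs into 4 higher and 4 lower, and library size alone into 5 and 5. Without sham replicate 1 no miRNA was called in either direction (edgeR, 15 and 15 at an unadjusted p under 0.05, with no other tool run on that set), whereas leaving out sham replicate 2 gave 13 higher and 7 lower. Leaving out an MI library gave 8 higher and 12 lower for replicate 1, and 6 higher and 10 lower for replicate 2. Each such fit leaves a group with 1 library, which is assumed to vary like the libraries of the other group, so these counts and the adjusted p-values of such fits rest on the spread of 1 group.

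**Figure D3:**
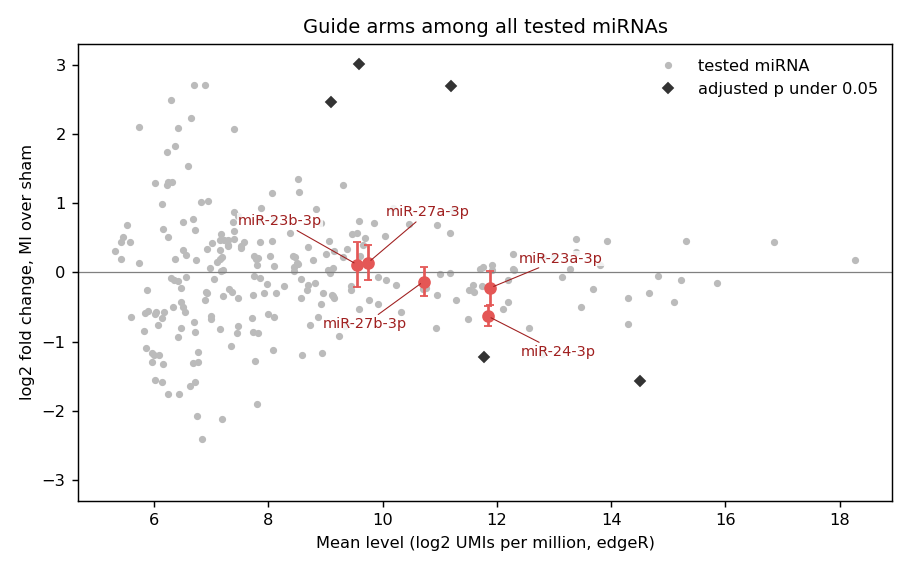
log2 fold change of MI over sham against the mean level of each tested miRNA (grey), with those past an adjusted p of 0.05 as black diamonds and the guide arms in red with their standard errors. Another 14 miRNAs beyond 3.2 on the log2 scale are not drawn. miR-24-3p at -0.63 is the lowest of the arms and the other arms lie between -0.22 and 0.14.

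Levels of different miRNAs were compared within a library. The mature strands printed above are 21 or 22 bases long and a UMI counts a molecule, so no length correction was made, but how well each sequence is captured during library preparation was not tested. The order of the first pair of hairpins was opposite in the clusters. On chromosome 8, miR-23a-3p exceeded miR-27a-3p in 4 of 4 libraries, by 4.58- and 5.71-fold in sham and 4.82- and 3.02-fold in MI libraries. On chromosome 13, miR-23b-3p was below miR-27b-3p in 4 of 4 libraries, where miR-27b-3p was 2.51- and 2.36-fold higher in sham and 1.63- and 2.81-fold higher in MI libraries. Within the upper pair, the sham means of miR-24-3p and miR-23a-3p (4465 ± 276 and 4080.1 ± 438 CPM) differed by less than the spread of miR-23a-3p, as did the MI means (2829 ± 9.54 and 3402 ± 673 CPM). The sham means of the lower pair, miR-27a-3p and miR-23b-3p, were also close (809 ± 209.9 and 717 ± 115 CPM). Within a library, miR-27a-3p was above miR-23b-3p in both sham libraries (361 against 301 and 106 against 102 UMIs). It was above it in MI replicate 2 (131 against 83 UMIs) and below it in MI replicate 1 (176 against 195 UMIs).

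The chromosome 8 copy supplied most of miR-23 and the smaller part of miR-27. miR-23a-3p was 84.6% of the miR-23 pair in sham replicate 1 (95% exact binomial interval 82.9 to 86.2%) and 85.6% in sham replicate 2 (82.8 to 88.1%). In the MI libraries it was 81.3% (78.8 to 83.6%) and 82.7% (79.0 to 86.0%). The mean share differed by -3.10 percentage points (MI minus sham), and the groups did not overlap. miR-27a-3p was 32.3% of the miR-27 pair in sham replicate 1 (29.6 to 35.2%) and 30.5% in sham replicate 2 (25.7 to 35.7%). In the MI libraries it was 35.7% (31.5 to 40.1%) and 36.0% (31.1 to 41.2%), which was 4.41 percentage points higher on average, again without overlap. Among all 17766 pairs of miRNAs listed in all 4 libraries, 46.3% did not overlap between groups when 1 was set against the other, so the lack of overlap of both shares is not particular to the paralogs. For both shares the exact two-sided permutation test gave p = 0.333, the smallest that 2 against 2 libraries allow, and 0.333 after Benjamini-Hochberg adjustment over the 2 shares. Intervals cover counting error only, and reads of paralogs that differ by 1 base can be exchanged.

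The paralog shares depended on whether molecules or reads were counted. By reads, miR-23a-3p made up 90.8 and 89.1% of the pair in sham and 88.7 and 89.9% in MI libraries, so the groups overlapped. By reads, miR-27a-3p made up 28.5 and 28.1% in sham and 36.7 and 33.9% in MI libraries, and the groups stayed apart by 6.99 percentage points.

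The number of reads per UMI, which links both kinds of count, was low for miR-23b-3p. It had 8.48 and 8.94 reads per UMI in sham and 7.04 and 7.25 in MI libraries. Its paralog miR-23a-3p had 15.2 and 12.3 in sham and 12.7 and 13.6 in MI libraries, and miR-24-3p 15.6 and 11.9 in sham and 12.7 and 13.7 in MI libraries. Among the 189 miRNAs listed in all 4 libraries the median was between 11.8 and 14.1, and only 15.9 to 24.3% of them had fewer reads per UMI than miR-23b-3p. miR-27a-3p, with 10.1 to 12.6 reads per UMI, was also under the median of each library.

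**Figure D4:**
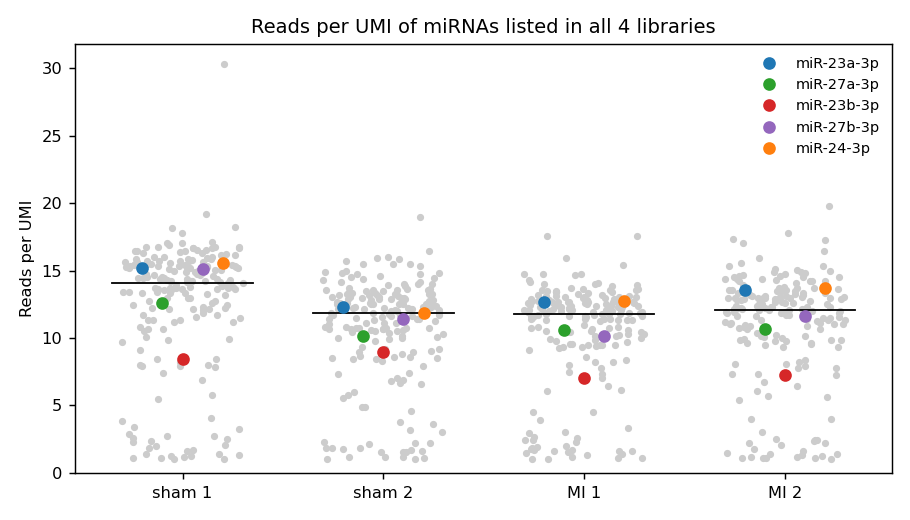
Reads per UMI of the 189 miRNAs listed in all 4 libraries (grey), the median of each library (black line) and the guide arms (colours). miR-23b-3p, at 7.04 to 8.94, lies below the medians of 11.8 to 14.1 and below the other 4 arms in every library.

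Ratios of members within a library do not depend on how libraries are scaled to each other. The log2 ratio of miR-24-3p to miR-23a-3p was 0.09 and 0.18 in sham and -0.45 and -0.05 in MI libraries, so miR-24-3p was the more abundant of the pair in both sham libraries and the less abundant in both MI libraries. Its log2 ratio to miR-27a-3p was 2.28 and 2.69 in sham and 1.82 and 1.54 in MI libraries, a difference of -0.81. Against miR-23b-3p the values were 2.55 and 2.75 in sham and 1.67 and 2.20 in MI libraries, a difference of -0.71. Against miR-27b-3p they were 1.22 and 1.51 in sham and 0.97 and 0.71 in MI libraries, a difference of -0.52. The ratio of miR-24-3p was thus lower after MI against each of the other guide arms, with no overlap between the groups.

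The ratios within each cluster that leave out miR-24-3p overlapped. The log2 ratio of miR-23a-3p to miR-27a-3p was 2.20 and 2.51 in sham and 2.27 and 1.60 in MI libraries. That of miR-23b-3p to miR-27b-3p was -1.33 and -1.24 in sham and -0.70 and -1.49 in MI libraries. Of the 6 ratios compared, 4 did not overlap between groups, each with an exact two-sided permutation p = 0.333 (0.500 after Benjamini-Hochberg adjustment over the 6). The other 2 had p = 0.667 and p = 1.0 (exact permutation test; 0.800 and 1.0 adjusted). The 4 ratios share miR-24-3p, and 46.3% of all pairs of miRNAs had ratios that did not overlap. Leaving out MI replicate 1, the difference in the ratio to miR-23a-3p was -0.18 and that in the ratio to miR-23b-3p was -0.44. Leaving out MI replicate 2, the difference in the ratio to miR-23a-3p was -0.58. By reads the miR-24-3p to miR-27b-3p ratio overlapped (1.26 and 1.56 in sham, 1.30 and 0.94 in MI libraries), and the other 3 ratios of miR-24-3p stayed apart.

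**Figure D5:**
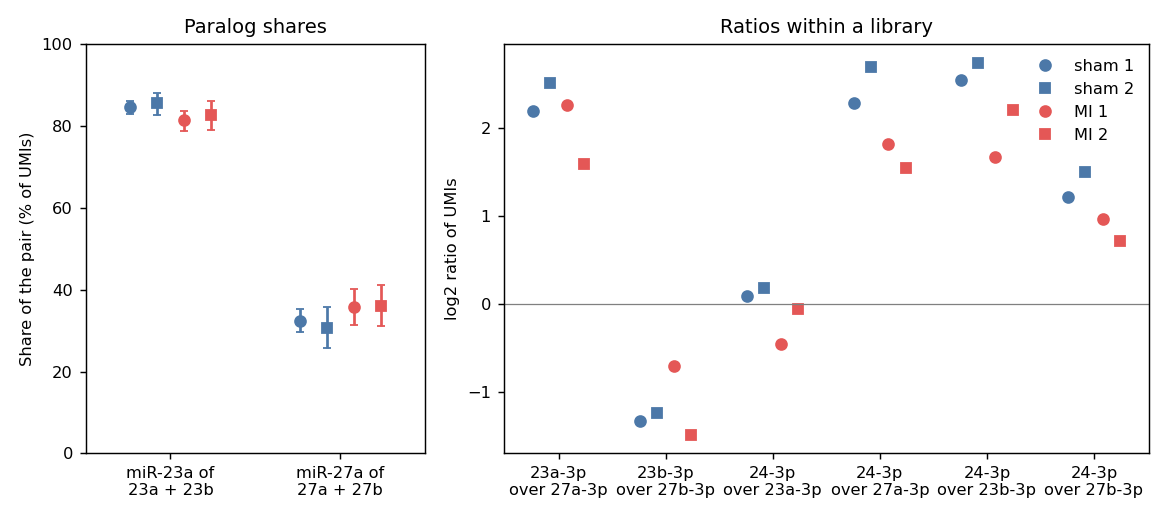
Left, the share of the chromosome 8 copy in the miR-23 and miR-27 pairs as a percentage of UMIs, with 95% exact binomial intervals. Right, log2 ratios of UMIs between members in each library (sham blue, MI red). The 4 ratios of miR-24-3p are lower in both MI libraries than in both sham libraries, by 0.38 to 0.81 on average.

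The passenger strands were near or below the listing floor. Of the 6 passenger arms of these hairpins, 1 was listed, miR-23a-5p, in sham replicate 1 alone and with 22 UMIs (58.4 CPM, 95% exact Poisson interval 36.6 to 88.3). It was 1.31% of the UMIs of both Mir23a arms there (95% exact binomial interval 0.824 to 1.98%). In the shallower libraries 9 UMIs, the most an unlisted arm can hold, would be 1.05 to 2.22% of that hairpin's UMIs, so the same share would not have been detectable in 2 of these 3 libraries. In sham replicate 1, miR-24-1-5p and miR-24-2-5p were each at most 0.510% of their own UMIs plus those of miR-24-3p.

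A further RNA of the miR-24 loci was listed, miR-3074-5p, which is annotated on the opposite strand of both. It was chosen after its values were seen. Its sequence is printed to show its relation to miR-24-3p, with the 20 bases in capitals that are the reverse complement of miR-24-3p.
miR-3074-5p: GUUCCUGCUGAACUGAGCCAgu
It had 391 and 148 UMIs in sham and 147 and 108 UMIs in MI libraries, or 1037 and 922 CPM against 671 and 798 CPM. Both MI libraries were below both sham libraries, as for miR-24-3p and for 26.6% of all tested miRNAs (log2 fold change of miR-3074-5p -0.40, SE 0.19, edgeR adjusted p = 0.487). There were 4.49 and 4.63 UMIs of miR-24-3p to 1 of miR-3074-5p in sham and 4.22 and 3.54 in MI libraries. It had 1.91 to 3.38 reads per UMI, far fewer than the 11.9 to 15.6 of miR-24-3p. The sources used here do not say whether the counting kept the strands apart, so the level of miR-3074-5p is uncertain.

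The profile of each arm over the 4 libraries was compared with all others, as the root mean square distance between log2 CPM centred on each miRNA's own mean. This describes 4 points and was not tested. For 4 of the arms the nearest fellow member was its paralog on the other chromosome, not its neighbour in the cluster. miR-23a-3p and miR-23b-3p were 0.174 apart, and miR-27a-3p and miR-27b-3p 0.149 apart. The neighbours on one precursor were further apart, with 0.337 between miR-23a-3p and miR-27a-3p and 0.296 between miR-23b-3p and miR-27b-3p. Paralogs are near-identical in sequence, and whether their reads were told apart was not tested. miR-24-3p was nearest to miR-23a-3p among the members, at 0.241.

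Each arm had miRNAs outside the group that followed it more closely, from 4 for miR-23b-3p to 32 for miR-24-3p among 184. The nearest to miR-24-3p were the injury-induced miR-21a-5p at a distance of 0.035 and miR-191-5p at 0.069. miR-21a-5p had 3748 and 3366 CPM in sham and 2137 and 2239 CPM in MI libraries (edgeR adjusted p = 0.137). It was picked for its nearness to miR-24-3p, so its being lower in both MI libraries follows from that choice. The nearest to miR-23a-3p were let-7j (0.054) and the joint row of miR-199a-3p and miR-199b-3p (0.059). Those to miR-23b-3p were miR-101b-3p (0.129) and miR-423-5p (0.131). Those to miR-27a-3p were miR-1839-5p (0.054) and the endothelial miR-126a-3p (0.077), and those to miR-27b-3p the liver-enriched miR-192-5p (0.064) and miR-126a-5p (0.082). The median distance to the miRNAs outside the group was 0.352 to 0.444.

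A list of other miRNAs of endothelial cells and angiogenesis was set beside the members. Of its 15 miRNAs 12 were tested and none passed in either direction (edgeR, none at an unadjusted p under 0.05), with 5 below 0 and a median log2 fold change of 0.11, beside -0.01 over all tested miRNAs. miR-126a-3p, which maintains vessel integrity in endothelial cells, had 15426 and 12209 CPM in sham and 13359 and 15931 CPM in MI libraries. miR-92a-3p, a repressor of angiogenesis, had 4297 and 4755 CPM in sham and 5672 and 4906 CPM in MI libraries. miR-126a-5p, from the same hairpin as miR-126a-3p, had 2541 and 2131 CPM in sham and 2041 and 2542 CPM in MI libraries. For the miR-126a arms the groups overlapped, and for miR-92a-3p the MI libraries were the higher, as for 21.7% of the 267 tested miRNAs.

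Some summed lists of cell type miRNAs differed between the same libraries as miR-24-3p, though not all in its direction. Of the single miRNAs tested, 26.6% had both MI libraries below both sham libraries and 21.7% had both above. The 4 myeloid and platelet miRNAs summed to 3.19 and 2.77% of miRNA UMIs in sham and 2.08 and 2.44% in MI libraries. The 3 lymphoid miRNAs summed to 1.44 and 1.63% in sham and 0.795 and 0.883% in MI libraries. Of the hepatocyte list 1 of 2 miRNAs was listed, miR-122-5p, with 3.50 and 3.52% in sham and 1.13 and 1.20% in MI libraries, while miR-122-3p was unlisted. The 2 endothelial miRNAs summed to 1.80 and 1.43% in sham and 1.54 and 1.85% in MI libraries, so these overlapped. The 5 heart and skeletal muscle miRNAs, of which 4 were listed in all 4 libraries, summed to 0.927 and 0.942% in sham and 1.11 and 1.17% in MI libraries. That sum joined members that moved apart. miR-133a-3p (log2 fold change 2.70) and miR-133b-3p (3.01) rose after MI (edgeR adjusted p = 0.00675 for each), as did miR-208a-3p, which was unlisted in both sham libraries (adjusted p = 0.0186). miR-206-3p, the most abundant of the list, had a log2 fold change of -0.80 (edgeR adjusted p = 0.121), and miR-1a-3p one of 0.52 (adjusted p = 0.529). The part of these cell types in the level of miR-24-3p was not tested, and fewer vesicles from a cell type and less RNA per vesicle cannot be told apart.

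The 6 miRNAs of the red cell list, with miR-16-5p the most abundant, were left out of the library size. The level of miR-24-3p was then 8398 and 7412 UMIs per 1e6 remaining miRNA UMIs in sham and 5966 and 5681 in MI libraries. The groups were still apart. With library size alone as the scaling, the log2 fold change was -0.45 (SE 0.14, edgeR adjusted p = 0.261). It was -0.66 with the list kept in at the same scaling (SE 0.13, edgeR adjusted p = 0.0824). At this scaling the median log2 fold change of all tested miRNAs was 0.12, against -0.05 with the list kept in.

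miR-23a-3p serves as the stable partner of the red cell miRNA miR-451a in a ratio used to detect haemolysis in human plasma. The log2 ratio of miR-451a to each arm was higher in MI than in sham libraries on average, by 0.91 for miR-23a-3p, 0.58 for miR-23b-3p, 1.29 for miR-24-3p, 0.48 for miR-27a-3p and 0.77 for miR-27b-3p. These ratios share miR-451a, which itself had a log2 fold change of 0.70 (SE 0.30, edgeR adjusted p = 0.423). The ratio to miR-23a-3p was -1.95 and -1.92 in sham and -0.95 and -1.11 in MI libraries. With miR-27a-3p as partner the groups overlapped, at 0.25 and 0.59 in sham and 1.32 and 0.49 in MI libraries. With miR-24-3p as partner the ratios were -2.04 and -2.10 in sham and -0.50 and -1.05 in MI libraries. With miR-23b-3p they were 0.51 and 0.65 in sham and 1.17 and 1.15 in MI libraries. With miR-27b-3p they were -0.82 and -0.59 in sham and 0.47 and -0.34 in MI libraries. The groups thus overlapped for miR-27a-3p alone, and 46.3% of all pairs of miRNAs had ratios that did not overlap. The ratios were chosen after the values were seen and were not tested.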

How the data were processed

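Small RNA of plasma small extracellular vesicles was sequenced in 4 libraries (QIAseq miRNA kit after differential centrifugation and Trizol extraction, per the labels' protocols). Each deposited table holds 1 library's raw UMI and read counts per feature, or its reads per read class, per the file headers. The sources used here name no aligner, genome build or counting rule. Empty tables of uncharacterised reads were not used. Groups and replicate numbers came from the titles. The read set names of both second replicates share a tag, and those of both MI libraries begin with M2; neither is explained, so the M2 tag and the MI group cannot be told apart.

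Unlisted features were entered as 0 (lowest listed value 10 UMIs). UMI counts of all miRNAs were fitted with edgeR 4.0.16 (R 4.3.3), with TMM scaling, a low-count filter by group (filterByExpr, 10 counts and 15 in total), the quasi-likelihood test and Benjamini-Hochberg adjustment at 0.05. Standard errors were derived from the F statistic as the size of the log2 fold change over √F. The fit was also run on 5 simulated sets, each with 200 changed miRNAs. These used a common dispersion for all miRNAs, so they do not show how the fit performs on these libraries. Shares and ratios were compared with exact two-sided permutation tests (SciPy 1.17.1). Poisson and binomial (Clopper-Pearson) intervals are at 95%. Sequences and hairpin positions are those of RefSeq (GRCm38.p6), with gene overlaps from GENCODE M21.

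The members, lists and tests were chosen with earlier results of these data known. Named miRNAs are all members, the 2 nearest profiles of each guide arm, miRNAs sharing a seed, and, of the angiogenesis list, those past the threshold and the 3 most abundant. Outside this rule, miRNAs of the marker lists (miR-16-5p, miR-122, miR-451a and the muscle miRNAs) and miR-3074-5p are named after their values were seen. Alternatives were scaling by DESeq2 1.42.0 size factors, library size alone or library size over all RNA classes, the DESeq2 Wald test, read counts, 2 other filters, unlisted features at 9 UMIs, a replicate block, summed paralogs and leaving out each library. Leaving out the red cell list, with library size alone as the scaling, was added after the data were seen.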

Additional observations from a re-analysis of the deposited data

How the results depend on the processing

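With 2 libraries per group, the exact permutation p of a share or ratio cannot go below 0.333, and levels under 10 UMIs were not listed. The count of miRNAs called higher (4) was 7 with the DESeq2 Wald test and 8 with no low-count filter, and 0 to 13 when leaving out 1 library. The count called lower (2) was 4 with DESeq2 size factors, 5 with library size alone, 7 with the DESeq2 Wald test, 12 with no low-count filter, 5 with unlisted features at 9 UMIs, and 0 to 12 when leaving out 1 library. miR-24-3p kept a negative log2 fold change in all 15 alternatives. The small differences of the other arms, none past the threshold, turned direction in some. That of miR-23b-3p was -0.036 with read counts, -0.073 with unlisted features at 9 and -0.18 summed with miR-23a-3p, and leaving out 1 library it ranged from -0.39 (without MI replicate 1) to 0.39. That of miR-27a-3p was -0.089 with unlisted features at 9 and -0.050 summed with miR-27b-3p, and ranged from -0.13 (without sham replicate 2) to 0.39. That of miR-27b-3p was 0.056 with the red cell list left out and ranged from -0.36 to 0.048 (without sham replicate 1), and that of miR-23a-3p ranged from -0.64 to 0.0062 (without MI replicate 2). The difference in the log2 ratio of miR-23b-3p to miR-27b-3p, 0.19, ranged from -0.20 (without MI replicate 1) to 0.58. The causes were not tested. The other shares and ratios kept their direction in the 6 alternatives run on each, most of which could not have turned it. The replicate block gives the same mean difference by arithmetic. Where the groups did not overlap, leaving out 1 library cannot change the sign, so only read counts could have. Leaving out 1 library moved some differences by over 1.5 times. The range was -0.58 to -0.18 for miR-24-3p over miR-23a-3p (-0.38) and -0.98 to -0.44 for miR-24-3p over miR-23b-3p (-0.71). For miR-23a-3p over miR-27a-3p (-0.42) it was -0.76 (without MI replicate 1) to -0.085 (without MI replicate 2). Fits without 1 library assume that the lone library of its group varies like the other group.

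The replicate numbers are not stated to pair libraries. Deviations of same-numbered libraries correlated with r = 0.253 across 189 miRNAs. With a replicate block the calls were 4 higher and 2 lower, and miR-24-3p had a log2 fold change of -0.63 (edgeR adjusted p = 0.127), so the block changed no call of a member.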
